A study of Eriocheir sinensis with 6 samples.

Results

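In muscle of Eriocheir sinensis, the Chinese mitten crab, the genes described here were already active before the molt and were several times higher after it. They were chosen by their own expression values. A gene had to be a predicted gene model (an ID that begins with evm.TU) outside 5 chromosomes (CM024112.1, CM024108.1, CM024135.1, CM024166.1 and CM024162.1). Its deposited FPKM had to be 20 or more in every pre-molt library. Its smallest post-molt FPKM had to be at least 3 times its largest pre-molt FPKM. FPKM is a level per length of gene and per size of library. The deposited values were in effect scaled by a size factor for each library, not by its total of fragments. Of the 18729 genes in the table, 13853 were predicted genes on the chromosomes kept, 1900 of those reached the pre-molt minimum, and 33 met the whole rule, which is 1.74% of the 1900. Because the rule used the FPKM of all 6 libraries, the difference between the stages in these 33 genes is a description and carries no test.

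A crab grows by shedding its rigid shell. Ecdysteroid hormones drive the preparation for the shed, and the new shell hardens only afterwards. Muscle takes part in this cycle, since in several crabs the claw muscle shrinks before the shed and is rebuilt in the larger new shell. The files give the genes as numbered predictions with no name, no function and no sequence, so no role is given to any of the 33 genes and the tissue could not be checked by marker genes.

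Gene expression was measured by RNA-seq of total RNA in 3 pre-molt crabs (D stages) and 3 post-molt crabs (A stages), 1 muscle sample per crab. The crabs were healthy farmed juveniles that had no treatment, weighed 8.41 ± 1.47 g on average and were held at 20 °C under natural light, so stage was the only labelled difference between the groups. The labels do not name the limb or body muscle. The study's methods name the walking legs where they describe the collection of molt-stage crabs, which were not analysed here. Recovered totals were 5810068 to 6768310 fragments per pre-molt library and 4168744 to 5117144 per post-molt library. In bulk muscle, more cells of a type and more RNA per cell cannot be told apart.

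The 33 genes stood at 24.4 to 235 FPKM before the molt (stage mean, median 53.5) and at 206 to 16987 FPKM after it (median 925). The ratio of post-molt to pre-molt mean ran from 5.03 to 442, with a median of 14.4. The 1900 genes that reached the pre-molt minimum had a median ratio of 1.02. The ratio was 10 or more in 21 of the 33 genes, 100 or more in 3 and under 10 in 12. Among all genes of the table ordered by stage mean, the members held ranks 432 to 2379 before the molt and ranks 48 to 700 after it. None was among the 100 most abundant genes before the molt and 3 were after it. Together they took 0.197% ± 0.0117 of the FPKM total in pre-molt and 2.98% ± 0.665 in post-molt libraries (SD, n = 3). As a share of recovered fragments this was 0.206% ± 0.0130 and 4.11% ± 0.715. A few genes carried most of it, as the 5 members with the highest post-molt means held 63.1% of the members' summed post-molt FPKM.

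The same fit that was run on all 17465 genes whose FPKM averaged 0.5 or more (limma on log2(FPKM + 1), called at an adjusted p of 0.05 or less and a log2 fold change of 1 or more) called all 33 genes higher in post-molt muscle, where it called 5.93% of the genes tested higher. The rule had already used this contrast, so nothing is read from that count. The fitted log2 fold changes of the members ran from 2.35 to 8.69, with a median of 3.69. Of all genes tested, 1036 were called higher and 280 lower. With quantile normalization these counts were 973 and 607, and all 33 members were called higher.

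**Figure D1:**
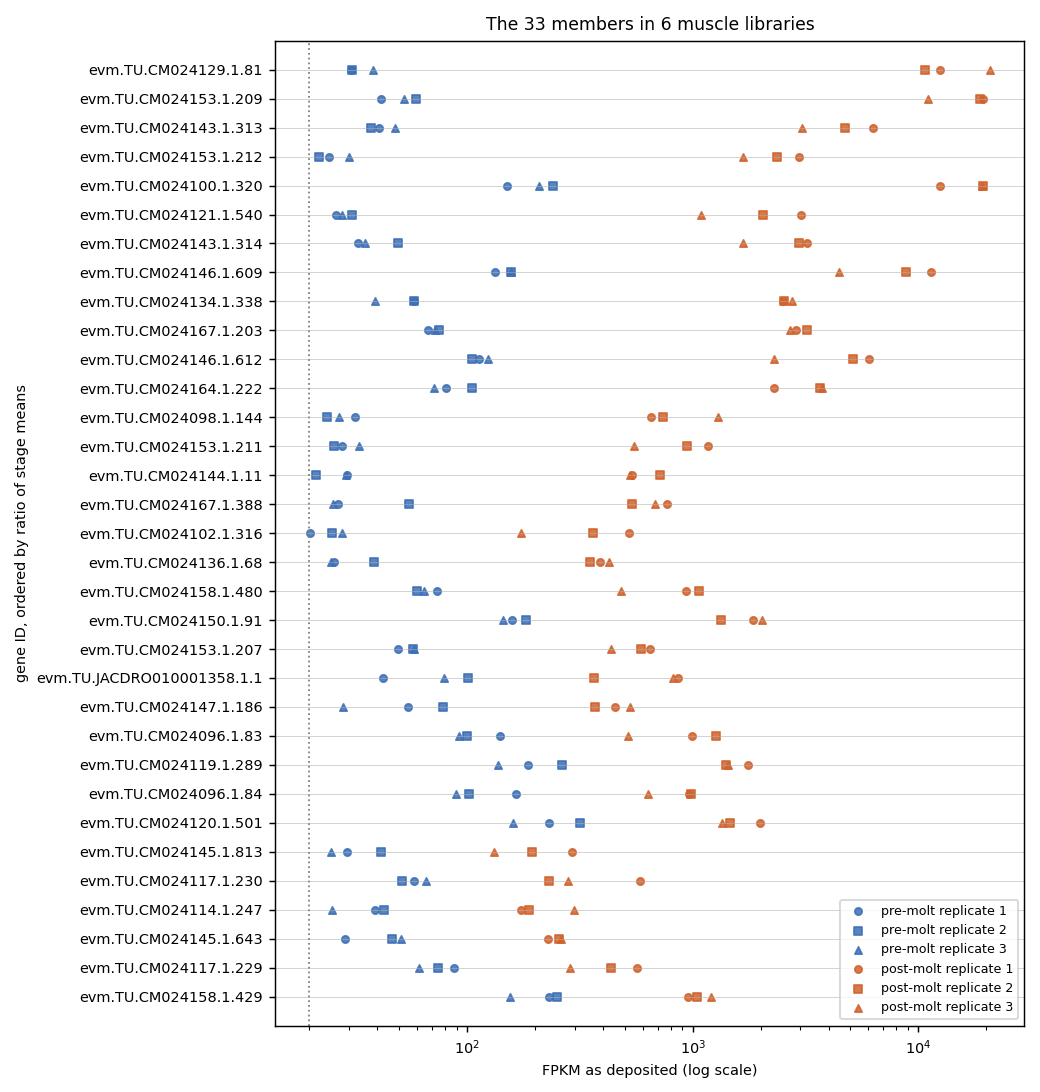
FPKM as deposited (log axis) of the 33 members in the 3 pre-molt and 3 post-molt libraries, ordered by the ratio of the stage means, with the pre-molt minimum of 20 FPKM dotted. Pre-molt points lie between 20.0 and 316 FPKM and post-molt points between 132 and 20863 FPKM, and within each gene the stages are apart by 3.20 times or more.

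The largest ratio belonged to evm.TU.CM024129.1.81 on chromosome CM024129.1, with a gene length of 1890 bases. It stood at 30.5, 31.1 and 38.3 FPKM in pre-molt replicates 1, 2 and 3 and at 12504, 10708 and 20863 FPKM in the post-molt replicates. Its smallest post-molt value was 280 times its largest pre-molt value. The post-molt value was highest in replicate 3, and the mean ratio was 442 (limma log2 fold change 8.69, SE 0.32). It began in the lower part of the members and had the rank of 55 among all genes after the molt.

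The gene with the next ratio, evm.TU.CM024153.1.209 (1462 bases), stood at 41.6, 59.3 and 52.6 FPKM before the molt and at 19337, 18821 and 11050 FPKM after it, a ratio of 321. Here replicate 3 was the lowest post-molt library and the others were close to each other. The next was evm.TU.CM024143.1.313 (885 bases), with 40.6, 37.5 and 48.2 FPKM in pre-molt and 6304, 4722 and 3039 FPKM in post-molt libraries, a ratio of 111. These were the 3 members whose ratio passed 100.

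Of the others among the 8 largest ratios, evm.TU.CM024153.1.212 had the lowest start, at 24.5, 22.1 and 30.0 FPKM, and reached 2964, 2372 and 1668 FPKM (ratio 91.4). The highest start among them was that of evm.TU.CM024100.1.320, a short gene of 741 bases, at 149.9, 242 and 207 FPKM in pre-molt and 12477, 19264 and 19221 FPKM in post-molt libraries. Its ratio of 85.1 together with that start gave it the highest post-molt mean of the 33 genes, 16987 ± 3906 FPKM (SD, n = 3). The gene evm.TU.CM024121.1.540 stood at 26.3, 31.0 and 27.8 FPKM before and 3016, 2046 and 1089 FPKM after the molt (ratio 72.3). The stages were far apart in it, although post-molt replicates 1 and 3 themselves differed by more than 2 times. The ratio was 66.8 for evm.TU.CM024143.1.314 and 55.3 for evm.TU.CM024146.1.609, which are described below with their neighbours.

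The 8 members with the highest starting levels had ratios of 5.03 to 85.1, on both sides of the members' median of 14.4. The highest start was that of evm.TU.CM024120.1.501, with 230.5, 316 and 159 FPKM before the molt and 1986, 1463 and 1350.1 FPKM after it, a ratio of 6.80. The next, evm.TU.CM024158.1.429, had the smallest ratio of all members, 5.03, from 230.3, 251 and 155 FPKM to 951, 1049 and 1201 FPKM. In both genes pre-molt replicate 3 was the lowest of all 6 libraries. The gene evm.TU.CM024119.1.289 went from 186, 264 and 138 FPKM to 1759, 1405 and 1432 FPKM (ratio 7.82), and evm.TU.CM024150.1.91 from 159, 182 and 144 FPKM to 1860.4, 1333 and 2036 FPKM (ratio 10.8). All 4 of these ended between 1067 and 1743 FPKM as a post-molt mean, below the 16987 FPKM of evm.TU.CM024100.1.320, which began in the same range. Of the rest of the 8 highest starts, evm.TU.CM024146.1.609 and evm.TU.CM024146.1.612 had ratios of 55.3 and 39.4, above the members' median of 14.4. The ratio of evm.TU.CM024096.1.84 was 7.23.

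The remaining small ratios were found in genes of low or middle level. They were 5.79 for evm.TU.CM024117.1.229, 5.87 for evm.TU.CM024145.1.643 and 6.13 for evm.TU.CM024114.1.247. The latter gene stood at 39.0, 42.8 and 25.3 FPKM before and 173, 187 and 297 FPKM after the molt. Its post-molt mean of 219 FPKM was near the lowest among the members, 206 FPKM for evm.TU.CM024145.1.813. A post-molt mean under 500 FPKM was found in 8 members and a mean of 10000 FPKM or more in 3.

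The size of the rise was set against the starting level in the plot of ratio by pre-molt mean. Across the 33 genes, the log2 ratio and the log2 pre-molt mean had a Spearman rho of -0.31 and a Pearson r of -0.27. The fitted slope was -0.46 on the log2 scale for each doubling of the start. Genes are not independent replicates, and the ratio contains the starting level, so any error in the pre-molt mean pushes this value below 0. With the start taken from 1 pre-molt library and the ratio from the other libraries, rho was -0.24 with replicate 1, -0.27 with replicate 2 and -0.088 with replicate 3. The relation was therefore weak, and its size depended on which library gave the start. Post-molt and pre-molt mean had a rho of 0.32.

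Grouped by starting level, 12 members began at 20 to 40 FPKM, 11 at 40 to 80 FPKM and 10 at 80 FPKM or more. Their median ratios were 26.4, 10.1 and 9.58. The ranges overlapped almost wholly, at 6.13 to 442, 5.79 to 321 and 5.03 to 85.1. A ratio of 10 or more was found in 10, 6 and 5 of these genes. The median number of FPKM added was 743, 607 and 1473, so the group with the highest start added the most despite its lower ratio. The rule asks for a larger addition from a higher start, so part of this order is built into the choice of genes. Of the genes that reached the pre-molt minimum, members were 2.10% of the 572 in the lowest group, 2.11% of the 521 in the middle group and 1.24% of the 807 in the highest group.

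**Figure D2:**
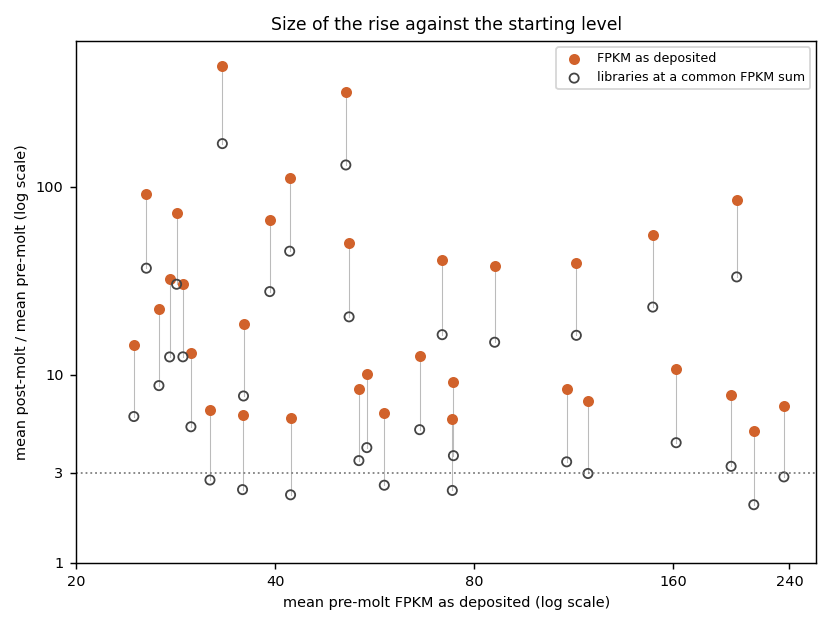
Ratio of mean post-molt to mean pre-molt FPKM (log axis) against mean pre-molt FPKM (log axis) for the 33 members, filled for the values as deposited and open for libraries at a common FPKM sum, with a dotted line at a ratio of 3. Ratios spread from 5.03 to 442 as deposited and from 2.03 to 170.0 at the common sum, and both sets extend lower toward high starts (Spearman rho -0.31 and -0.30).

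The deposited FPKM did not sum to the same total in each library. The sums were 1115974 to 1463554 in the pre-molt libraries and 2772125 to 3753646 in the post-molt libraries. The 33 genes were therefore compared again with every library rescaled to the same sum, set so that the mean factor of the pre-molt libraries was 1. This multiplied post-molt values by 0.347 to 0.469 and pre-molt values by 0.889 to 1.17. At this common sum the ratios of the 33 genes ran from 2.03 to 170.0 with a median of 5.99, and the median ratio over the 1900 genes was 0.416. The median limma log2 fold change over all genes tested moved from -0.09 to -0.87, and 642 genes were called higher and 6635 lower. This rescaling makes most genes lower after the molt by its construction.

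In all 33 genes every post-molt library stayed above every pre-molt library at the common sum, as it did in 41 of the 1900 genes (2.16%). A gap of at least 3 times remained in 18 genes and was lost in 15, where the smallest post-molt value was 1.14 to 2.23 times the largest pre-molt value. Scaling by recovered fragment totals gave the same 18 genes, but its post-molt factors, 0.397 to 0.487, were close to those of the common sum. Scaling by the upper quartile of genes above 0, with post-molt factors of 0.713 to 0.728, left the gap in 25. Median-of-ratios factors left it in all 33. Those factors were only 0.961 to 1.03, as the deposited FPKM were already scaled by size factors, so nothing is read from that count. Whether a gap of 3 times was present thus depended on the scaling in 15 genes. The order of the stages was the same in all 33 under each of these 4 scalings. Genes chosen for a gap of 3 times had little or no room to change order under these factors, so nothing is read from that. At the common sum limma called 32 members higher, where it called 3.68% of genes tested, and the member not called was evm.TU.CM024117.1.230.

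The deposited ratios of the genes that kept the gap were 10.8 or more, and those of the genes that lost it were 14.4 or less. Since each library was multiplied by 1 factor for all genes, genes with the widest deposited gaps keep it by construction. The widest gaps at the common sum were 91.3 times in evm.TU.CM024129.1.81, 62.4 times in evm.TU.CM024153.1.209, 24.2 times in evm.TU.CM024100.1.320 and 18.8 times in evm.TU.CM024143.1.313. The rescaled values of evm.TU.CM024129.1.81 were 28.8, 27.6 and 44.6 FPKM before and 5870.0, 4072 and 7233 FPKM after the molt. At the other end, evm.TU.CM024117.1.230 had 54.8, 45.8 and 77.0 FPKM before and 274, 87.4 and 97.0 FPKM after. The stages nearly met in that gene, since post-molt replicate 2 was 1.14 times pre-molt replicate 3. By starting level, 9 of the 12 genes in the lowest group, 4 of 11 in the middle group and 5 of 10 in the highest group kept the gap. The median start was 40.7 FPKM in the genes that kept it and 66.2 FPKM in those that lost it.

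**Figure D3:**
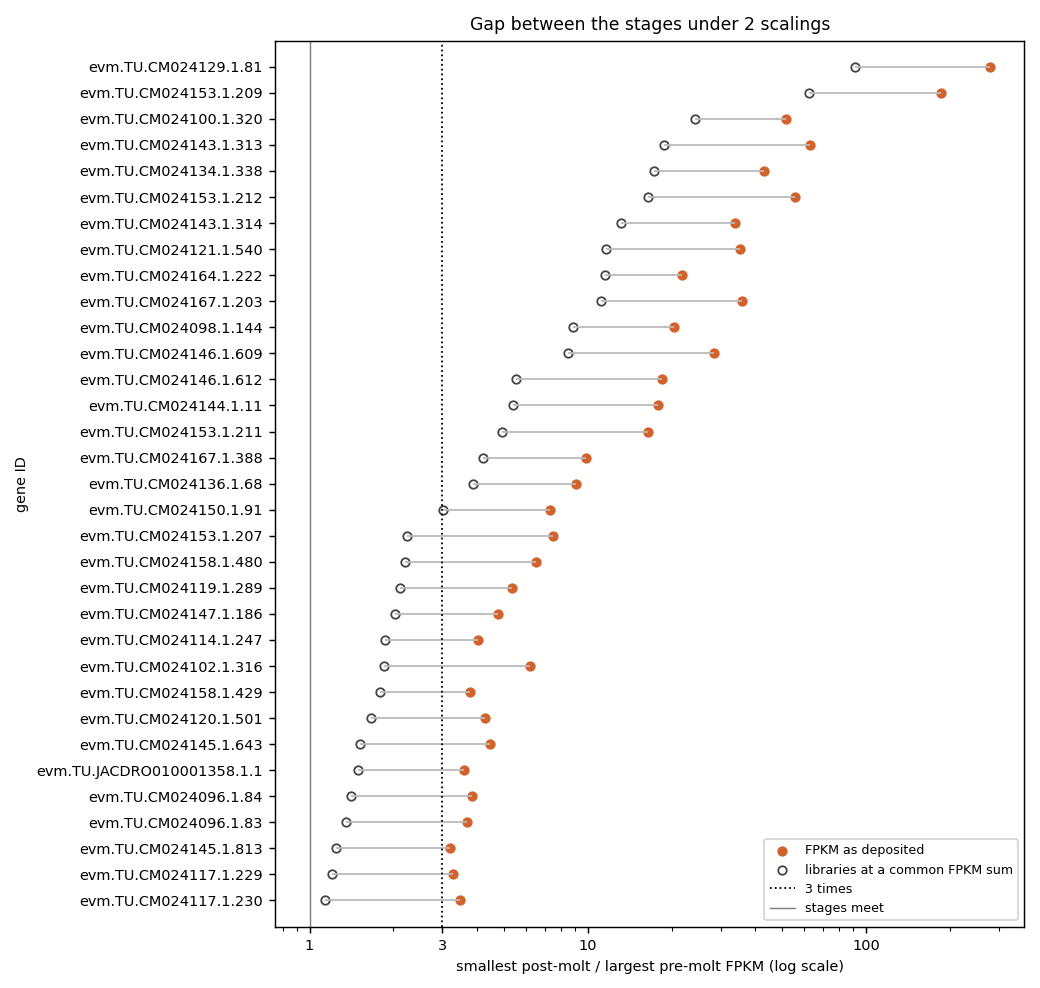
Smallest post-molt divided by largest pre-molt FPKM (log axis) of each member, filled as deposited and open at a common FPKM sum, with lines at 1 and at 3 times. All 33 open points lie to the right of 1 and 18 of them at or to the right of 3.

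The post-molt crabs differed more from each other than the pre-molt crabs did in most members. The coefficient of variation (SD as a percentage of the mean, n = 3) was 5.66% to 46.6% over pre-molt libraries, with a median of 17.8%, and 5.23% to 52.5% over post-molt libraries, with a median of 28.3%. It was higher in post-molt in 23 of 33 members (69.7%) and in 64.6% of the other 1867 genes at the pre-molt minimum, whose medians were 19.8% and 27.6%. The median post-molt spread of the members was thus close to that of the other genes at the pre-molt minimum, which were not matched on starting level.

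On the deposited scale, the steadiest member after the molt was evm.TU.CM024134.1.338, at 58.2, 58.1 and 39.0 FPKM in pre-molt and 2503, 2529 and 2750.2 FPKM in post-molt libraries, a post-molt coefficient of 5.23%. It was followed by evm.TU.CM024145.1.643 (28.9, 46.7 and 51.0 FPKM before, 228, 255 and 261 FPKM after) and evm.TU.CM024167.1.203 (67.3, 75.4 and 71.9 FPKM before, 2881, 3200.1 and 2700.3 FPKM after), at 7.08% and 8.65%. In evm.TU.CM024136.1.68, at 25.7, 38.9 and 24.9 FPKM before and 388, 352 and 427 FPKM after the molt, the coefficient was 9.66%. These 4 genes were the only members under 10% as deposited, and their ratios ran from 5.87 to 50.1, so steady values were found at small and at large rises. The order depended on the scaling, as at the common sum the coefficient of evm.TU.CM024134.1.338 was 12.2%, that of evm.TU.CM024167.1.203 was 18.2% and the lowest was 5.71% in evm.TU.CM024158.1.429.

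The least steady was evm.TU.CM024117.1.230, at 58.0, 51.5 and 66.0 FPKM before and 583, 229.8 and 279.7 FPKM after the molt (52.5%). This gene is 153 bases long, the shortest of the members, and its post-molt values rested on 157, 42 and 50 fragments. In evm.TU.CM024102.1.316 the post-molt values were 523, 362 and 174 FPKM from pre-molt values of 20.0, 25.3 and 28.0 FPKM (49.5%). The coefficient was 47.0% in evm.TU.CM024121.1.540 and 43.6% in evm.TU.CM024146.1.612. In the latter 3 genes replicate 1 was the highest and replicate 3 the lowest post-molt library.

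The highest and the lowest post-molt library were then counted over the members. Replicate 1 was the highest post-molt library in 17 of 33 genes (51.5%) and replicate 3 the lowest in 18 (54.5%), where the other 1867 genes had 42.8% and 53.1%. At the common sum replicate 3 was the lowest in 21 members, and in 64.5% of the other genes. Replicate 3 was the highest as deposited in 10 members, where it was so in 29.3% of the other genes, and these members included evm.TU.CM024129.1.81 and evm.TU.CM024134.1.338. Without post-molt replicate 3 the median ratio of the 33 genes was 18.1, and 46 genes met the rule, which can only gain genes when a library is left out.

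**Figure D4:**
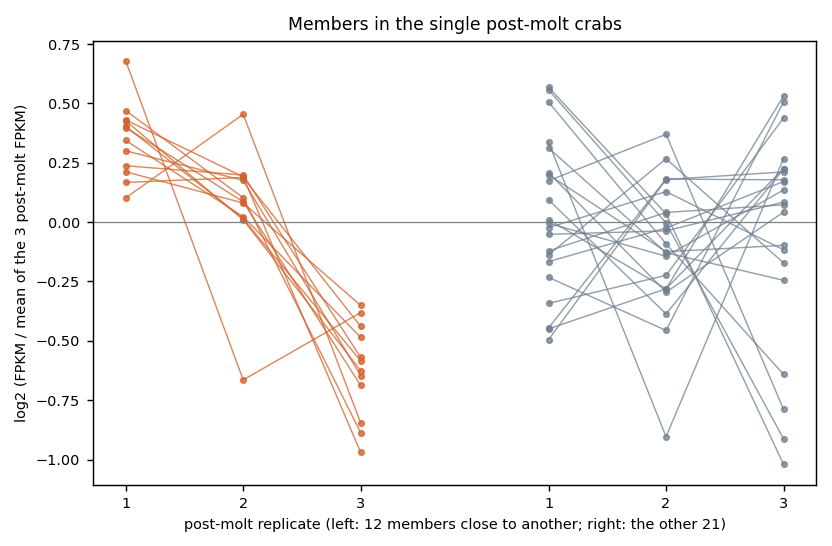
Log2 of each post-molt FPKM over the mean of the 3 post-molt FPKM of that gene, by replicate, with a line joining the values of 1 gene, for the 12 members within 3 places of another member (left) and the other 21 (right). All 12 genes on the left lie above 0 in replicate 1 and below 0 in replicate 3, while the 21 on the right show no common order. Values are as deposited, and the order of the replicates depends on the scaling.

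The members were not unusual in length, which the rule did not use. Gene lengths ran from 153 to 4164 bases with a median of 991, and the median was 1032 over the other genes at the pre-molt minimum. Within the members, longer genes had the larger ratios. The 16 genes of 1000 bases or more had a median ratio of 35.0 and 11 of them kept the 3 times gap at the common sum, while the 17 shorter genes had a median ratio of 9.15 and 7 kept it. The Spearman rho of ratio and length was 0.37 over the 33 genes. Fewer fragments lay behind the short genes. The fewest in any library was 28 for evm.TU.CM024144.1.11 in pre-molt replicate 2, for which the exact Poisson 95% interval is 18.6 to 40.5 fragments, and 110 for the genes of 1000 bases or more. Such intervals cover counting error only. Whether depth has a part in the relation of ratio and length was not tested.

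The members came from 23 chromosomes or scaffolds of the 75 that held a gene at the pre-molt minimum. Gene order was read from the number that ends each ID. By that number, 12 of the 33 genes lay within 3 places of another member, in 5 groups, and 8 were direct neighbours of a member. Whether genes of a group are copies of each other was not analysed here, since sequences were not used here. Fragments that aligned at 1 place only were counted, so that near-identical copies of a gene could lose fragments, and the values of neighbouring members are uncertain to that extent.

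The largest group lay on chromosome CM024153.1 and held evm.TU.CM024153.1.207, evm.TU.CM024153.1.209, evm.TU.CM024153.1.211 and evm.TU.CM024153.1.212. Both genes between them were also higher after the molt but missed the pre-molt minimum, so that all 6 genes from 207 to 212 were higher in every post-molt library than in any pre-molt library. The gene evm.TU.CM024153.1.208 went from 6.94, 6.04 and 9.79 FPKM to 4789, 5390.5 and 3709 FPKM, and evm.TU.CM024153.1.210 from 30.7, 10.5 and 19.0 FPKM to 438, 473 and 298 FPKM. These genes were named for their place after their values were seen. The members in this stretch differed widely in size. First in order, evm.TU.CM024153.1.207 went from 49.4, 57.6 and 58.1 FPKM to 645, 589 and 436 FPKM, a ratio of 10.1, against 321 for evm.TU.CM024153.1.209. The gene evm.TU.CM024153.1.211 went from 28.0, 25.7 and 33.3 FPKM to 1169, 941 and 551 FPKM, a ratio of 30.6. Starting levels in the 4 members were alike, at 25.5 to 55.0 FPKM, while post-molt means ran from 557 to 16403 FPKM. On the side of lower numbers, evm.TU.CM024153.1.205, a gene of low level, was at 1.31 ± 0.53 FPKM before and 0.94 ± 0.84 FPKM after the molt (SD, n = 3), so the higher level did not extend to it. The places directly beside the stretch, evm.TU.CM024153.1.206 and evm.TU.CM024153.1.213, had no values, so its edges were not seen.

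On chromosome CM024146.1 the members were evm.TU.CM024146.1.609, at 133, 157 and 156 FPKM before and 11419.5, 8851 and 4459 FPKM after the molt, and evm.TU.CM024146.1.612, at 113, 106 and 124 FPKM before and 6063, 5136.5 and 2298 FPKM after it. Their ratios were 55.3 and 39.4. In both the pre-molt libraries lay close together (coefficients of 9.08% and 8.10%) and the post-molt libraries differed by more than 2 times. Of the genes beside them, evm.TU.CM024146.1.608 was at 0, 0.487 and 0 FPKM before and 154, 81.0 and 70.5 FPKM after the molt, from 1 pre-molt library above 0. The gene between the members, evm.TU.CM024146.1.610, was at 0 FPKM in every pre-molt library and at 1.24, 1.21 and 0 FPKM in the post-molt libraries. A post-molt level like that of the members was thus not shared by evm.TU.CM024146.1.610. Its values lay near 0 FPKM, so whether it rose cannot be told, and evm.TU.CM024146.1.611 had no values.

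The pair on chromosome CM024143.1 stood apart from most of the measured genes near it. Besides evm.TU.CM024143.1.313, it held evm.TU.CM024143.1.314, at 32.8, 49.7 and 35.3 FPKM before and 3228, 2961 and 1675 FPKM after the molt. On its lower side, evm.TU.CM024143.1.312 was at 1.33 ± 0.37 FPKM before and 0.93 ± 0.13 FPKM after the molt, and on its upper side evm.TU.CM024143.1.317 stood at 532 ± 42.4 and 355 ± 30.0 FPKM (SD, n = 3). The place directly above the pair, evm.TU.CM024143.1.315, had no values, so a direct neighbour was seen on the lower side only. Of the 5 genes in the table within 3 places of the pair, a mean ratio over 3 was found only in a gene of low level, evm.TU.CM024143.1.316, at 0.66 FPKM before and 3.87 FPKM after the molt.

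The other pairs had small ratios. On chromosome CM024096.1, evm.TU.CM024096.1.83 went from 139, 99.7 and 92.2 FPKM to 993, 1268 and 515 FPKM and evm.TU.CM024096.1.84 from 165, 103 and 89.0 FPKM to 966, 979.7 and 634 FPKM. Their ratios were 8.38 and 7.23. The gene after them, evm.TU.CM024096.1.85, was at 23.8 ± 1.03 FPKM before and 25.0 ± 7.52 FPKM after the molt (SD, n = 3). On chromosome CM024117.1, evm.TU.CM024117.1.229 went from 87.4, 74.1 and 61.0 FPKM to 568, 434 and 287 FPKM, beside evm.TU.CM024117.1.230. The gene that follows this pair, evm.TU.CM024117.1.231, went from 60.0, 48.9 and 32.5 FPKM to 335, 262 and 139 FPKM. It missed the rule because its smallest post-molt value was 2.32 times its largest pre-molt value. Neither pair kept the 3 times gap at the common sum.

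**Figure D5:**
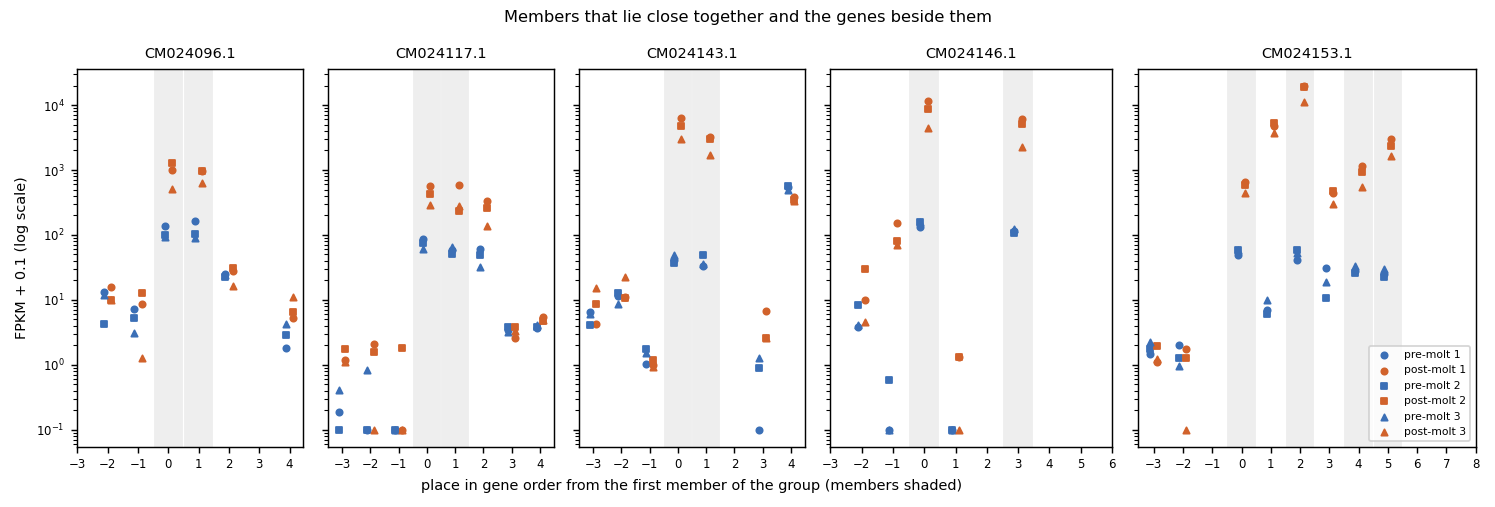
FPKM + 0.1 (log axis) in each library against place in gene order, counted from the first member of the group, for the 5 groups of members that lie within 3 places of each other (members shaded, 3 places shown on each side, places with no point not in the table). On CM024153.1 the post-molt points lie above the pre-molt points in all 6 genes from place 0 to place 5. The genes directly beside the members show no such gap on CM024096.1, nor does the gene directly below them on CM024143.1.

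On the deposited scale, genes of a group also mostly shared the order of the post-molt libraries. Of the 12 members in groups, 9 were highest in replicate 1 and lowest in replicate 3, and none was highest in replicate 3. Among the other 21 members these counts were 4 and 10, and 32.7% of the other 1867 genes at the pre-molt minimum had that order. At the common sum replicate 1 was the highest post-molt library in 26 of all 33 members and replicate 3 in 3. That rescaling multiplied replicate 1 by 0.469 and replicate 3 by 0.347 in every gene, so it moves all genes this way by construction. The share of the other genes was not counted at the common sum, so these counts mark no trait of the members. The contrast between grouped and other members therefore depended in part on the scaling. Only 3 post-molt libraries underlie it, and neighbouring genes are not independent, so it is given without a test. The median ratio was 35.0 in the grouped members and 13.0 in the others.

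The 33 genes had 32 direct neighbours in the table that were not members. Of these, 10 had a mean post-molt value at least 3 times the pre-molt mean on the FPKM + 1 scale (31.2%), compared with 817 of the 13853 predicted genes on the chromosomes kept (5.90%). Leaving the 5 groups aside, 6 of 23 neighbours did (26.1%). One of them, evm.TU.CM024144.1.10 next to evm.TU.CM024144.1.11, was nearly a member, at 18.3, 13.8 and 36.6 FPKM before and 602, 629 and 584 FPKM after the molt. Beside evm.TU.CM024102.1.316, the gene evm.TU.CM024102.1.315 was at 13.9, 16.4 and 15.7 FPKM before and 308, 179.7 and 126 FPKM after it. Both were named after their values were seen. Raised neighbours therefore also occurred beside members that lie alone. Another 24 neighbouring places had no gene in the table and were not analysed here.

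The study also lists genes that changed in both expression and chromatin accessibility between neighbouring stages, in 8 lists by step and direction. These lists were chosen partly on the libraries used here, so membership is not independent evidence of direction. Of the 33 genes, 11 were in at least 1 list (33.3%), as were 158 of the 1900 genes at the pre-molt minimum (8.32%). The list falling between post-molt and inter-molt held 9 members (27.3% of the members and 2.0% of the list), and 2.79% of the 1900 genes. They were evm.TU.CM024129.1.81, evm.TU.CM024153.1.212, evm.TU.CM024134.1.338, evm.TU.CM024098.1.144, evm.TU.CM024102.1.316, evm.TU.CM024136.1.68, evm.TU.CM024150.1.91, evm.TU.CM024119.1.289 and evm.TU.CM024145.1.813. The list rising between pre-molt and molt held 4 members (12.1% of the members and 1.22% of the list), and 1.47% of the 1900 genes. The list rising between molt and post-molt held 0.895% of the 1900 genes and 2 members (6.06% of the members and 3.33% of the list), namely evm.TU.CM024129.1.81 and evm.TU.CM024153.1.212. The remaining 5 lists held no member, and 22 members were in no list.

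Both thresholds cut through a continuous range of genes. Just inside the fold minimum were evm.TU.CM024145.1.813, evm.TU.CM024117.1.229 and evm.TU.CM024117.1.230, with a smallest post-molt value of 3.20, 3.28 and 3.48 times the largest pre-molt value. Just outside were evm.TU.CM024131.1.139, evm.TU.CM024156.1.502 and evm.TU.CM024159.1.149, at 2.99, 2.98 and 2.70 times. At the pre-molt minimum, evm.TU.CM024102.1.316, evm.TU.CM024144.1.11 and evm.TU.CM024153.1.212 were just inside, with smallest pre-molt values of 20.0, 21.5 and 22.1 FPKM. Just outside were evm.TU.CM024165.1.453, evm.TU.CM024129.1.47 and evm.TU.CM024133.1.204, at 19.9, 18.5 and 17.5 FPKM. The first of these would have been among the largest rises, as it went from 24.1, 19.9 and 21.4 FPKM to 4346, 4757 and 3296 FPKM.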

How the data were processed

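Muscle RNA of 3 pre-molt and 3 post-molt crabs was sequenced as paired reads. Per the labels and the study's methods, alignment used HISAT2 2.0.5, and featureCounts 1.5.0-p3 then counted the uniquely aligned fragments of each gene. Use of strand in counting: not given in the sources used here. Deposited by the authors were FPKM per gene and library, for genes that reached 1.00 FPKM in some library, and a table of their own comparison with a normalized signal per library (counts divided by a size factor), gene lengths, log2 fold changes and p-values. The deposited log2 fold changes and p-values were not used. The FPKM columns carry another prefix than the sample titles, but equalled the signal of the same stage and number, up to the length and 1 constant per library, within a relative range of 9.9e-10. That constant was 0.966 to 1.03 of its mean, so the deposited FPKM were in effect scaled by size factors.

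Whole fragments were recovered from the FPKM (100% of values whole within 0.001 fragments). Recovery returned 98.6% of deposited gene lengths exactly, and members used the deposited lengths. All genes were fitted with limma 3.58.1 in R 4.3.3 (trend, group as the only term), a pseudocount of 1 FPKM and a mean FPKM of 0.5 or more, with Benjamini-Hochberg adjustment. Alternatives included edgeR 4.0.16 and DESeq2 1.42.0 on recovered fragments. Where libraries were rescaled, the mean pre-molt factor was kept at 1, so that the minimum of 20 FPKM kept its meaning. Correlations and positions were computed in Python 3.11.15. Genes were named as the 8 largest and 4 smallest ratios, the 8 highest starts, the 4 highest and 4 lowest post-molt coefficients of variation, the 4 widest gaps at a common sum, members next to a member, and 3 genes on each side of each threshold. Members, lists and rules were chosen with earlier results of these data known. No gene ID matched the reference gene table (0 IDs).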

Additional observations from a re-analysis of the deposited data

How the results depend on the processing

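Rescaling to a common FPKM sum or to recovered fragment totals left 16 genes that met the rule in each case, as 2 of the 18 with the 3 times gap dropped under 20 FPKM, and gave a median member ratio of 5.99 and 6.32. Scaling by the upper quartile gave a ratio of 10.4. A fold minimum of 2 gave 68 genes, pre-molt minimums of 10 and 40 FPKM gave 61 and 17, and stage means in place of extremes gave 101. The Spearman rho of ratio and start was -0.24 and -0.088 with the start from pre-molt replicates 1 and 3. Leaving out 1 library gave 36 to 46 genes by the rule and a median ratio of 13.1 to 18.1. The rule takes the extremes over libraries, so leaving 1 out can only add genes and keeps all 33 by construction. Without 1 library limma called 763 to 1313 genes (763 without pre-molt replicate 1 and 786 without replicate 3). All 33 members were called in each of these fits, which called 659 to 1029 of the 17465 genes tested higher. The rule had already used this contrast, so nothing is read from the members called. Of all genes, limma called 1316 as deposited and 7277 at the common sum, and on recovered fragments edgeR called 1974 and DESeq2 1672. The cause of these changes was not tested where the setting does not itself fix it.

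Pairing by replicate number was not used, because each library came from another crab and the labels give no link between equal numbers. The correlation of deviations between libraries of equal number was -0.03, -0.03 and -0.05. A library of another number always correlated better. Deviations within a stage sum to 0, so values below 0 make this so by construction. A fit with the replicate block called 1003 genes, 976 of them shared with the fit without it. It called 843 of the 17465 genes tested higher, among them all 33 members, which had been chosen on this contrast. Low fragment counts limit the shortest members most, down to 28 in a pre-molt and 42 in a post-molt library.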

Other observations

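The opposite pattern was of similar frequency on the deposited scale. Of the 1900 predicted genes at 20 FPKM or more in every pre-molt library, 26 had a smallest pre-molt value at least 3 times the largest post-molt value, compared with the 33 described here. At the common FPKM sum these counts were 120 and 18. That rescaling multiplies every post-molt value by 0.347 to 0.469, so it moves both counts in this direction by its construction. Without the limit to predicted genes on the chromosomes kept, 48 genes of the whole table met the same thresholds, of which 13 were predicted genes on the 5 chromosomes left out and 2 were gene models outside the predicted set.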
